A study of Mus musculus with 14 samples.

Results

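Type I2 is an inhibitory cell type of the mouse medial vestibular nucleus, and it is set here against the other inhibitory types, I1a, I1b, I3a and I3b. The arrays were taken by their titles: 2 arrays of I2, 8 arrays of the other inhibitory types and, for context, 4 arrays of the excitatory types E1 and E2, which makes 14 in all. Each type was 1 pool of amplified cDNA from single brainstem neurons, hybridised to 2 Affymetrix arrays as technical replicates. All 7 pools share the same source: mice of the YFP-16, GIN and GlyT2-13 reporter lines on the C57BL/6 background, aged 24 to 32 days after birth, with no treatment named. In these lines the reporter is driven by regulatory sequences of Thy1, Gad1 and Slc6a5. The labels state neither how many cells entered a pool nor which line they came from. The cells had been sorted into types by transmitter genes, ion channels and other markers before pooling, so such genes are not independent evidence on what sets I2 apart. Because I2 is a single pool, no value below measures how I2 cells vary between animals.

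The medial vestibular nucleus receives head motion signals from the inner ear and inhibition from the cerebellum, and it helps to stabilise gaze and posture. Its inhibitory neurons release GABA, glycine or both, and include local and commissural cells. Inhibitory neurons elsewhere in the brain are commonly told apart by calcium-binding proteins, neuropeptides, transcription factors and the channels that set their firing.

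Signals are on the log2 scale, where 1 unit is a 2-fold difference, and the lowest value on every array was 2.387. Of 16244 genes, 4409 (27.1%) had a mean of 5 or more in at least 1 type and were kept. The median SD between arrays of a pool was 0.17. Across these genes the 2 I2 arrays correlated at r = 0.992. The I2 pool mean correlated at r = 0.887 with I3b, 0.878 with I1b, 0.867 with I1a, 0.866 with I3a, 0.855 with E2 and 0.853 with E1. All pairs of pools without I2 correlated at 0.894 or more, above each of these values. Genes are not independent replicates, and these r carry no p. Of 6 bacterial control transcripts, probed on every array, 5 lay outside the range of the other inhibitory pools in I2, while LysX, at 11.51, lay inside it. BioB, the lowest of the 4 that lay below in I2, read 7.74 in I2 against 7.88 to 9.62 in the other inhibitory pools, and DapX, the 1 above, read 6.33 in I2 against 4.57 to 6.14. Their part in the results was not tested.

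Transmitter genes were read beside the label of an inhibitory type. The cells had been sorted partly by such genes, so these values are not an independent check of that label. Gad1, which makes GABA, read 12.33 and 12.43 on the I2 arrays, against 10.71 to 12.52 on the 8 other inhibitory arrays. Slc32a1, which loads GABA and glycine into synaptic vesicles, read 9.78 and 9.74 in I2 against 9.19 to 9.65 on the others. Slc6a5, the glycine transporter of glycinergic neurons, read 7.94 and 7.92 in I2, within the range of 7.42 to 8.55 of the others. Gad1 and Slc6a5 thus overlapped the other types in I2, and Slc32a1 lay just above them. Gad2, the second enzyme of GABA synthesis, averaged 8.90 in I2 and 8.66 over the other pools. Of the vesicular glutamate transporters, Slc17a6 read 3.16 and 3.06 in I2, beside 3.32 and 3.06 in I3b and up to 10.48 in I1b. Slc17a7 was near the floor in I2. I2 thus had high Gad1 and Slc32a1 and low Slc17a6, and none of the 5 kept of these genes was called different on pool means. Low Slc17a6 is no part of the inhibitory label, since the gene averaged 8.60 in I1a, 10.48 in I1b and 6.93 in I3a. Slc17a7 did not pass the filter and was not tested.

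More genes lay apart from the other inhibitory arrays in I2 than in any other inhibitory type, a count for which no test was made. A gene was counted as apart where both I2 arrays lay at least 1 log2 unit above, or below, all 8 other inhibitory arrays. This held for 149 genes higher in I2, which is 3.38% of the genes kept, and for 58 lower, which is 1.32%. Quantile normalization made the split 127 and 77, and median centring of the arrays made it 130 and 81. The same rule applied to each other type gave 54 genes in all for I1b, 48 for I3a, 38 for I1a and 25 for I3b, against 207 for I2. Those types come in pairs by name, and a type with a like partner has fewer genes that can lie apart by this rule, whereas I2 has no such partner. Most of the genes apart also lay at least 1 unit from the 4 excitatory arrays, namely 132 of the 149 (2.99% of genes kept) and 50 of the 58 (1.13%). Without the 1-unit margin, the I2 arrays did not overlap the 8 others for 1040 genes above (23.6%) and 524 below (11.9%). The pool mean of I2 differed from the mean of the 4 others by at least 1 unit for 542 genes above (12.3%) and 305 below (6.92%).

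**Figure D1:**
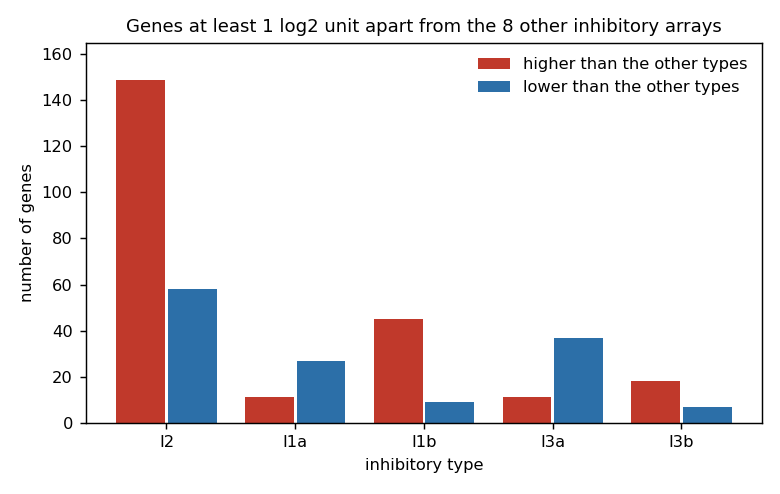
Number of genes (y axis) that stood at least 1 log2 unit above (red) or below (blue) all 8 arrays of the other inhibitory types, for each of the 5 inhibitory types on the x axis. I2 had 149 above and 58 below, and the type with the next highest total, I1b, had 54 in all.

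Tested on pool means, with I2 as 1 pool against 4 and limma's moderated test, 8 genes were called higher in I2 (0.181%) and 0 lower (0.00%). A call needed an adjusted p under 0.05 over all genes and a difference of 1 log2 unit or more. Of the 8, 7 reached a mean of 5 in no type but I2, so they passed the filter only through the pool where they are high, and the size of such a difference depends on the floor. Ptprz1 was the exception. Among the 149 genes apart and higher, 69 had passed in the same way. At an unadjusted p under 0.05 there were 438 genes higher and 187 lower. The calls split into 7 higher and 2 lower by quantile normalization and 7 higher and 4 lower by median centring. The test takes the spread among the other 4 types as the measure of how a pool varies. Leaving out the I1a, I3a or I3b pool, which leaves 3 pools on that side, ended every call, with adjusted p from 0.108 to 0.18 for the 8 genes. Without I1b 10 genes were called, but Dkk3, Gal and Ptprz1 were not among them. Single arrays moved the count as well: there were 25 calls without the first I2 array (20 higher and 5 lower), 21 without the second of I1a, 18 without the second of I3b and 13 without the second of I1b. Without the first array of I1a there were 5, and without the first of I3b 3. In bulk pools, fewer cells with a transcript and less of it per cell cannot be told apart.

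**Figure D2:**
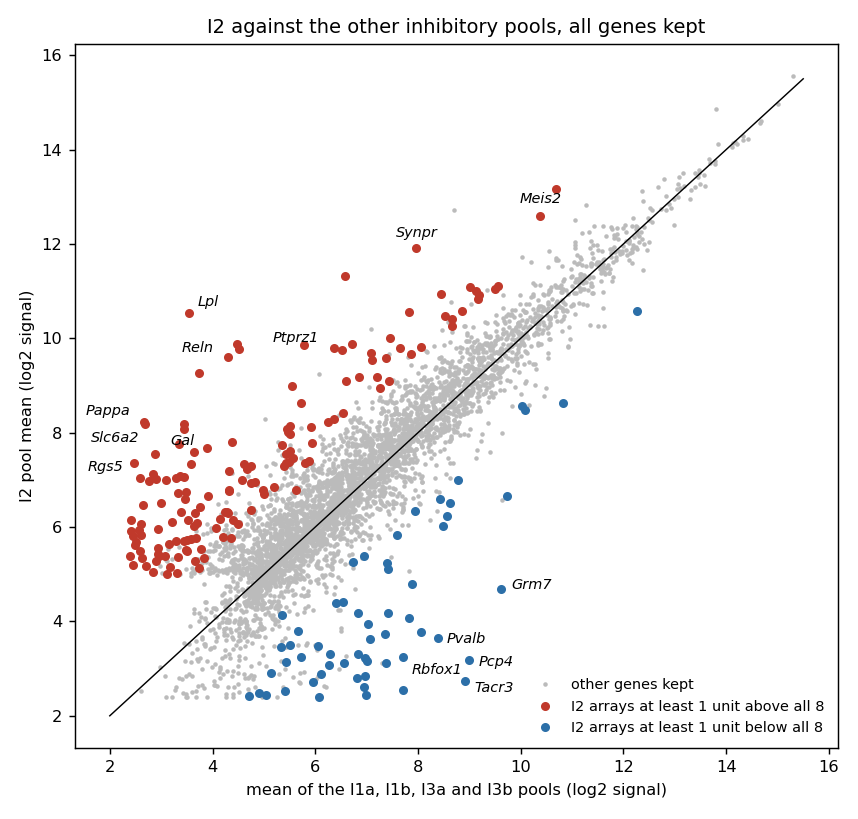
Pool mean of I2 (y axis) against the mean of the 4 other inhibitory pools (x axis), both as log2 signal, for the 4409 genes kept. The 149 genes whose I2 arrays lay at least 1 unit above all 8 others are red, the 58 below are blue, other genes grey, and the line marks equal values. Of the red points, 69 have a mean under 4 in the other pools.

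The called genes cover secreted factors, a transporter, a signalling regulator and matrix and membrane proteins. Pappa, a secreted protease that frees insulin-like growth factors from their binding proteins, read 8.18 and 8.28 in I2, against a lowest, median and highest value of 2.45, 2.56 and 3.32 on the other inhibitory arrays. Its difference was 5.57 log2 units (SE 0.36, adjusted p 0.0337). Both I2 arrays lay far above all others, which were close to the floor.

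Gal, the precursor of the neuropeptide galanin, read 7.52 and 7.82 in I2 against 3.61 to 4.16 on the other inhibitory arrays, with a median of 3.79. The difference was 3.78 (SE 0.31, adjusted p 0.0436), and the E arrays lay at 3.61 to 3.79 as well. Dkk3, a secreted relative of the Dickkopf Wnt inhibitors, read 6.43 and 6.52 in I2 against 2.48 to 2.86 in the others, a difference of 3.82 (SE 0.34, adjusted p 0.0451). The call of Dkk3 was the least steady of the 8, and it was lost after either rescaling (adjusted p 0.0529 by quantile normalization and 0.0575 by centring, and from 0.000152 to 0.18 across all alternatives). Zg16, a lectin known from secretory granules of the digestive tract, read 8.11 and 8.06 in I2 against 3.16 to 4.11, a difference of 4.64 (SE 0.32, adjusted p 0.0337). That probe set is of a kind that can cross-hybridise with transcripts of other genes. The other 2 probe sets of Zg16 read 3.89 and 2.73 in I2, with differences of 1.51 and 0.16, so the call of Zg16 rests on the 1 probe set.

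Slc6a2, the plasma membrane transporter of noradrenaline, read 8.12 and 8.25 in I2. The other inhibitory arrays read 2.39 to 3.37, with a median of 2.52, and the difference was 5.51 (SE 0.44, adjusted p 0.0436). The list of other transmitter genes held the enzymes of catecholamine synthesis, whose values were looked up after that of Slc6a2 was seen. Th was at 2.39 and Ddc at 2.65 in I2, both near the floor. Dbh read 5.68 in I2, inside the 5.60 to 6.09 of the other inhibitory pools.

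Rgs5, which ends signalling by G protein-coupled receptors, read 7.30 and 7.41 in I2. On the 8 other inhibitory arrays it read 2.46 to 2.49, in effect the floor, and the difference was 4.87 (SE 0.33, adjusted p 0.0337). Rgs5 is also a marker of pericytes, the contractile cells of capillaries. Of the 7 vascular markers read, it was the 1 that reached 5 in I2. Cldn5, Flt1, Pdgfrb and Vtn stood at 2.39, Acta2 at 2.45 and Tek at 2.46. The summed linear signal of the 6 markers other than Rgs5 was 32 in I2 and 31 to 34 in the other inhibitory pools, and with Rgs5 the sum was 195 in I2 and 37 to 40 in the others.

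Ptprz1 is a receptor phosphatase that binds contactins, and also tenascins of the extracellular matrix. It read 9.89 and 9.70 in I2 against 5.92 to 6.57 in the others. Its difference was 3.43 (SE 0.29, adjusted p 0.0436), and it was the 1 called gene that read above 5 on every other inhibitory array. Its difference stayed at 3.43 when values under 5 were set to 5. That setting lowered the differences of the other 7 called genes to between 1.47 and 3.23. Ptprz1 lost its call when any 1 of the other inhibitory pools was left out, and with the excitatory pools as a group in the fit. Ptprz1 is also expressed by glia. Of the glial markers read, none of 10 for astrocytes, 10 for the oligodendrocyte lineage or 6 for microglia reached 5 in I2. Rnf207, a RING finger protein studied in heart muscle, read 7.05 and 7.01 in I2 against 2.44 to 2.98, a difference of 4.44 (SE 0.39, adjusted p 0.0436).

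**Figure D3:**
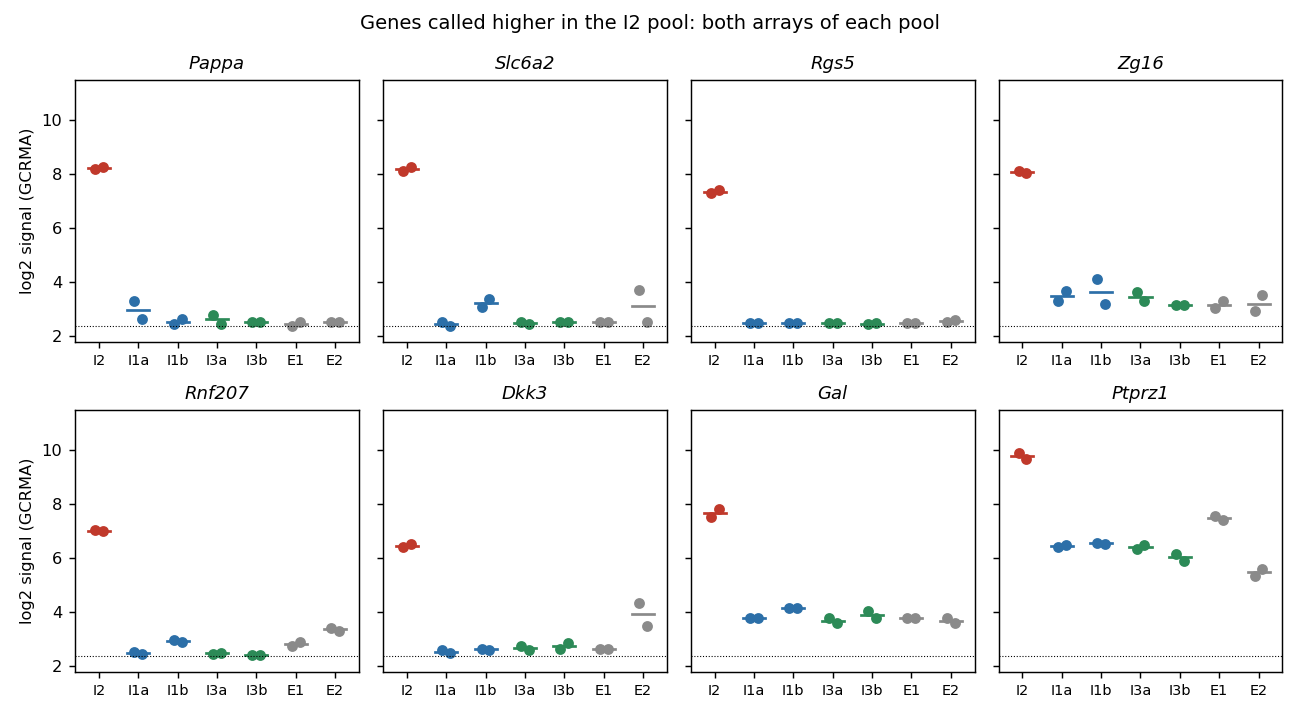
Log2 signal (y axis) of the 8 genes called higher in I2, with 1 point per array and a bar at each pool mean, for I2, the 4 other inhibitory types and the 2 excitatory types. The dotted line is the floor of 2.387. I2 lies above every other array in all 8 panels, and Ptprz1 is the panel in which the other inhibitory arrays sit well off the floor, at 5.92 to 6.57.

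The sequence just upstream of a transcription start is shown for 3 of the genes called higher in I2 and for Tmem176a. Tmem176a was the leading gene whose window held the motif CAGCTG, an E-box that basic helix-loop-helix factors can bind. Sequences are the 250 bases before a transcription start from RefSeq, build GRCm38.p6, in the direction of the gene, and capitals mark motif matches. The Ptprz1 window precedes a later start, and it reaches past position 22875315, where the gene begins.
Gal, chr19:3414545-3414794, - strand: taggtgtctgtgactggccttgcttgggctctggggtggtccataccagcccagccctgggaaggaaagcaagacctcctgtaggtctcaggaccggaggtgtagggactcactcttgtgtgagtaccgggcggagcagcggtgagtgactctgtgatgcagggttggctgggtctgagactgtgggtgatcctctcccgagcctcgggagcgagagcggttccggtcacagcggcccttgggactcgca
Rgs5, chr1:169655251-169655500, + strand: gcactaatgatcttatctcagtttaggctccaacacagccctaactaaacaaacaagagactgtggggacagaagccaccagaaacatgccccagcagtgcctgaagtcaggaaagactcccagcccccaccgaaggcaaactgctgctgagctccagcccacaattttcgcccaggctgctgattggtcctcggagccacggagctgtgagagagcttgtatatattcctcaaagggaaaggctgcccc
Ptprz1, chr6:22875252-22875501, + strand: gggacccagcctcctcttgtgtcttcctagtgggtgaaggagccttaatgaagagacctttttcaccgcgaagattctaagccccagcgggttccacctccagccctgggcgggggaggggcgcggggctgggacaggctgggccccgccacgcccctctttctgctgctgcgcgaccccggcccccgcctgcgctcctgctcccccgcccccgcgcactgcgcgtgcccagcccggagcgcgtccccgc
Tmem176a, chr6:48841233-48841482, + strand: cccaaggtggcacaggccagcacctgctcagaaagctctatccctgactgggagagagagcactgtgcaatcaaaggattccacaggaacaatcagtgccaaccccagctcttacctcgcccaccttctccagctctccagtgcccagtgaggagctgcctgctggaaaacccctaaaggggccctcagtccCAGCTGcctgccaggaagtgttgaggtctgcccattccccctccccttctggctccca
Of the 15 genes with the largest gap above the other inhibitory arrays, 8 had an entry, with 9 windows in all. CAGCTG was in 2 of these windows, both of Tmem176a, which overlap and hold the same single site. The motif was in 17.4% of windows of genes apart and higher in I2, in 17.2% for genes apart and lower, in 11.3% for genes kept and in 13.0% of all windows. The motifs CAGATG, TGACGTCA and TATAAA, each searched on both strands, were in 11.8%, 0.6% and 7.5% of windows of the higher genes. They were in 9.4%, 0.0% and 6.2% for the lower genes, in 9.7%, 2.9% and 6.6% for genes kept, and in 14.4%, 1.5% and 12.4% of all windows. The higher genes' shares of CAGATG and TATAAA thus lay above those of genes kept and below those of all windows. The motifs and windows were chosen after the values were seen, TATAAA last, once the windows of the called genes had shown no match to the other 3. No match in a window says only that the letters are not there.

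Other genes lay far above the rest in I2 without being called. Lpl, lipoprotein lipase, which releases fatty acids from circulating fat, read 10.55 and 10.52 in I2 against 2.39 to 6.93 in the others, a difference of 6.99 (SE 1.85, adjusted p 0.232). The I1b pool held the high values, at 6.93 and 6.63, and the E2 arrays read 7.38 and 7.19. Reln had its next highest values in I1b as well. Reln, the secreted glycoprotein that guides neuronal migration, read 9.61 and 9.60 in I2 against 2.55 to 6.79, a difference of 5.29 (SE 1.44, adjusted p 0.232). It is also a marker of cerebellar granule cells. With Reln, the 7 granule and unipolar brush cell markers read summed to 812 in linear signal in I2. In the other inhibitory pools the 7 summed to 183 to 387. The 6 other than Reln summed to 36 in I2. In the other inhibitory pools they summed to 74 to 375. Of these 6, only Neurod1 passed the filter, with a mean of 3.11 in I2 and 5.54 to 8.44 in the other inhibitory pools. The sum without Neurod1 was not taken.

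Several membrane and matrix proteins followed the same pattern. Itm2a, a small type II membrane protein, read 9.91 and 9.87 in I2 against 2.77 to 6.62 elsewhere among the inhibitory arrays. Cldn1, a tight junction claudin, read 9.40 and 9.14 against 2.39 to 5.80, on a probe set of the same cross-hybridising kind as that of Zg16, while its other probe set read 3.63 in I2. The next 3 genes passed the filter through I2 alone, had other inhibitory arrays near the floor and missed the call narrowly. Tmem176a, a membrane protein with 4 spans, read 7.02 and 7.21 against 2.54 to 3.49 (adjusted p 0.0519), while its other probe sets read 2.39 and 2.96 in I2. Pln, the inhibitor of the calcium pump of the sarcoplasmic reticulum, read 5.95 and 6.37 against 2.39 to 2.55 (adjusted p 0.0501). Matn2, a matrilin of the extracellular matrix, read 6.07 and 5.75 against 2.39 to 2.52 (adjusted p 0.0519). All 5 were named for their gap above the other inhibitory arrays, so that separation was fixed by the choice. Their I2 arrays also lay at least 1 log2 unit above the 4 excitatory arrays. Separation from both held for 2.99% of all genes kept.

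Among neuropeptide genes, I2 had high values of 3 that lay apart from the rest, of 15 kept in the list, where the share over all genes kept was 3.38%. Of the 15, 4 passed the filter through I2 alone. Besides Gal these were Cck, the precursor of cholecystokinin, at 7.28 and 6.72, and Nxph2, a secreted ligand of neurexins, at 6.98 and 6.97. Cck read 2.42 to 4.84 and Nxph2 2.42 to 3.99 on the other inhibitory arrays. The I1a pool held the high Cck values and the I1b pool the high Nxph2 values. Their differences of 3.91 (adjusted p 0.232) and 4.21 (adjusted p 0.091) were not called. The median difference of the list was 0.07, beside 0.09 over all genes kept, and it turned negative under either rescaling, to -0.11 and -0.09. Over all 35 members read, the median was 0.00.

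The list of receptors for the inhibitory transmitters themselves, with gephyrin, included 3 genes apart and higher in I2, of 9 kept, beside 3.38% of all genes kept, and none apart and lower. Among these 3, Glra2 and Glra3 passed the filter through I2 alone. Gabra2, an alpha subunit of the GABA-A receptor, read 7.76 and 7.43 in I2 against 2.71 to 5.86, a difference of 3.96. Glra3 and Glra2 encode alpha subunits of the glycine receptor other than the adult spinal form. Glra3 read 6.28 and 6.71 in I2 against 2.70 to 3.55 (difference 3.51, adjusted p 0.0519). Its other probe set averaged 2.41 in I2 and 2.43 over the other inhibitory pools. Glra2 read 5.81 and 6.05 in I2 against 2.39 to 3.49 (difference 3.37, adjusted p 0.0809). The I2 arrays lay above all other inhibitory arrays for each of the 3. Glra1, the main adult glycine receptor subunit, averaged 9.68 in I2, within the 9.52 to 11.52 of the other inhibitory pools. The median difference of the 9 kept was 1.21, beside 0.09 for all genes kept, and over all 18 members read it was 0.00.

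Channel genes were part of how the cells had been sorted. Kcnt2, a sodium-activated potassium channel, read 7.51 and 7.59 in I2 against 2.39 to 4.13 (difference 4.68, adjusted p 0.0603). Kcnt2 passed the filter through I2 alone and was named for its gap above the other inhibitory arrays. Fgf13, a factor that binds sodium channels and shifts their inactivation, read 10.59 and 10.53 in I2 against 6.41 to 8.56. Of the 7 sodium channel and related genes kept, 6 had positive differences, and Fgf13 was the 1 apart. The median was 1.45, which was also the median over all 9 members read. Of the 7, 1 had passed the filter through I2 alone. Scn2a, a sodium channel of unmyelinated axons, read 10.33 and 10.35 in I2 and 6.64 to 9.89 in the others. Kcnc2, a potassium channel of fast repolarisation, read 8.33 and 8.23 in I2, inside the other types' range, since I1b read 8.26 and 8.42. Scn4b, a sodium channel beta subunit in the same list of fast-spiking channels, read 2.66 and 3.02 in I2, beside 2.73 and 2.91 in I3b and up to 9.76 in I1b. Of the 8 genes of that list, 6 had negative differences.

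Signalling, vesicle and guidance genes gave more cases. Rgs4, another regulator of G protein signalling, read 11.33 and 11.30 in I2 against 3.31 to 9.38, and its I3 values were the lowest. Synpr, the synaptic vesicle protein synaptoporin, read 11.85 and 11.97 in I2 against 6.10 to 9.86. Meis2, a homeobox transcription factor, read 12.61 and 12.60 in I2 against 9.86 to 11.36, on a probe set of the kind that can cross-hybridise. None of the 3 was called on pool means. For each, both I2 arrays lay above all 8 others, as they did for 23.6% of all genes kept. Dcc, a netrin receptor, read 7.06 and 6.98 in I2 against 2.45 to 4.0. Sema3c, a secreted semaphorin, read 6.72 and 6.76 in I2 against 2.47 to 5.59. Of 18 guidance genes kept, 4 were apart and higher in I2, beside 3.38% of all genes kept, and 2 of the 18 had passed the filter through I2 alone. The 1 apart and lower, beside 1.32% of all genes kept, was Sema3a.

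Genes far below the other types in I2 began with Pvalb, which encodes the calcium buffer parvalbumin of many fast-firing inhibitory neurons. It read 3.59 and 3.71 in I2, against a lowest, median and highest value of 7.97, 8.25 and 9.10 on the other inhibitory arrays. The difference was -4.73 (SE 0.45, adjusted p 0.0501), just short of a call. An adjusted p under 0.05 was reached in 12 of the alternatives, among them the fit after median centring. The E arrays, at 7.47 to 8.78, also lay above I2. Grm7, a presynaptic metabotropic glutamate receptor, read 4.24 and 5.13 in I2 against 8.33 to 10.67 (difference -4.93, SE 0.79, adjusted p 0.12). Rbfox1, a neuronal splicing factor, read 3.39 and 3.09 in I2 against 6.63 to 8.90 (difference -4.45, SE 0.78, adjusted p 0.139). Another probe set of Rbfox1 differed by -0.60.

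Matrix and guidance genes came next among the low ones. Tnr, tenascin-R of the perineuronal net, read 2.39 and 2.83 in I2, against 5.61 to 7.97. Bcan, brevican of the same net, read 6.52 and 6.77 against 7.80 to 10.52, on a probe set of the kind that can cross-hybridise. Both lay apart in I2, whereas Ptprz1, a receptor for such matrix proteins, was called higher. The 4 net genes kept had 2 positive and 2 negative differences. Sema3a, a repellent guidance cue also found in perineuronal nets, read 3.24 and 3.22 in I2 against 6.29 to 7.85 (difference -3.73, adjusted p 0.0803). Cthrc1, a secreted collagen repeat protein, read 2.93 and 2.84 against 5.48 to 6.58 (difference -3.23, adjusted p 0.0519).

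**Figure D4:**
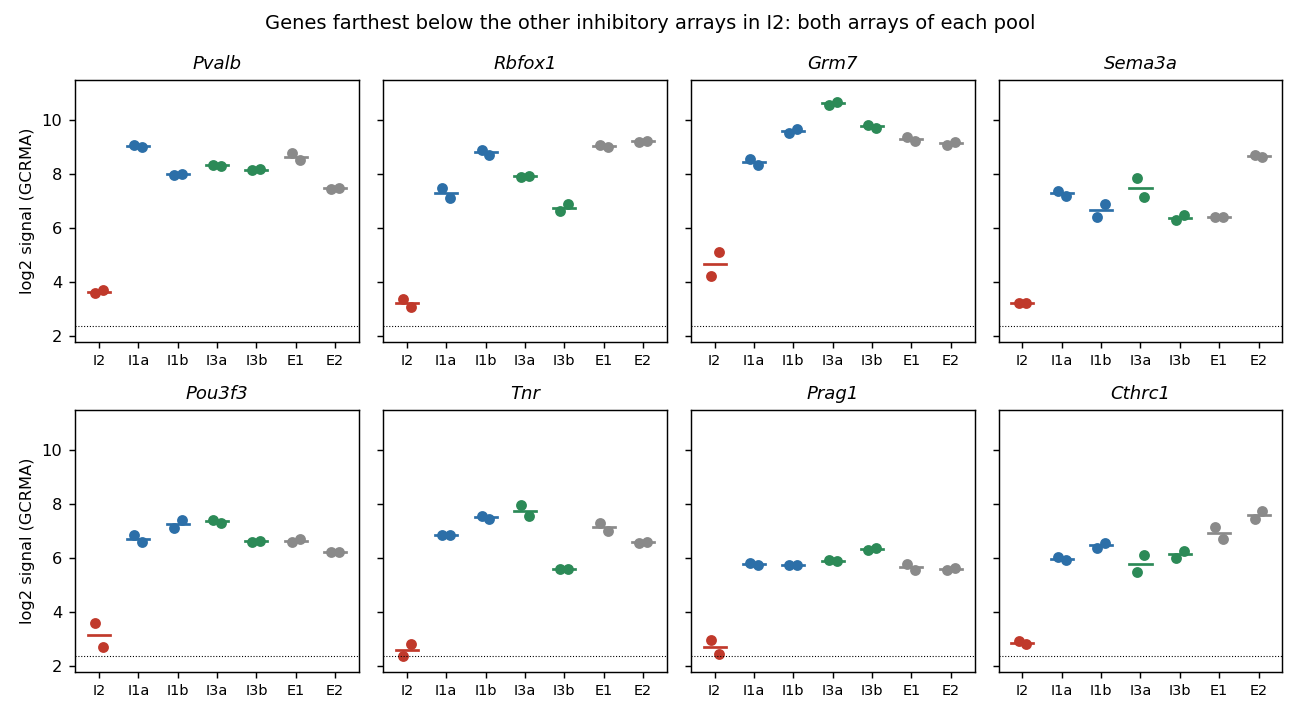
Log2 signal (y axis) of the 8 genes with the largest gap below the other inhibitory arrays in I2, with 1 point per array and a bar at each pool mean, for I2, the 4 other inhibitory types and the 2 excitatory types. The dotted line is the floor of 2.387. In every panel the I2 arrays are the lowest of all 14, with Grm7 the highest of the I2 values at 4.24 and 5.13.

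Transcription factors of neuronal identity had mostly negative differences among those kept. Of 19 kept, 14 were negative, the median was -1.84 and 4 were apart and lower in I2, beside 1.32% of all genes kept, with 0 apart and higher. Without the filter on low signal, which takes in all 75 members read, the median was -0.02. Neurod1, a basic helix-loop-helix factor of neuronal differentiation, read 3.11 on both I2 arrays, against 5.27 to 8.48. Ebf3, a helix-loop-helix factor of neuronal identity, read 2.54 and 3.13 in I2, against 4.51 to 8.43. The I3 pools held the highest values of both, and their differences of -4.26 (adjusted p 0.232) and -4.13 (adjusted p 0.306) were not called. Pou3f3, a POU homeobox factor, read 3.59 and 2.72 in I2 against 6.61 to 7.44, a difference of -3.85 (SE 0.39, adjusted p 0.0519). It lay below every other array.

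Calcium-binding proteins had 4 genes apart and lower among 10 kept, beside 1.32% of all genes kept. The median difference was -0.82 over the 10, and 0.04 over all 18 members read, so the negative direction was lost without the filter. Pcp4, a small calmodulin-binding protein, read 3.35 and 3.01 in I2, beside 5.17 and 6.15 in I3b and 9.76 to 10.51 in I1a, I1b and I3a. Caln1, a brain calmodulin-like protein, read 3.83 and 3.73 against 5.55 to 9.50. Not all members were low in I2: Calb2, calretinin, averaged 10.20 in I2 beside 9.86 in I3b and 3.44 in I3a. Calb2 was added after its values were seen.

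Synaptic organisers of the cerebellin and C1q-like family, which link presynaptic and postsynaptic receptors, had negative differences for each of the 5 kept, with a median of -2.70, and a median of -0.27 over all 13 members read. C1ql3 read 2.62 and 2.49 in I2 against 4.39 to 10.82, and Cbln1 read 2.83 and 2.80 against 4.21 to 8.50. Both were apart and neither was called, with an SD over the other 4 pools of 2.83 for C1ql3 and 1.79 for Cbln1. Tacr3, the neurokinin B receptor, read 2.62 and 2.87 in I2 against 4.88 in I1b up to 11.39 in I3b, a difference of -6.17 (SE 2.43, adjusted p 0.352) on a probe set of the cross-hybridising kind. Its other probe set, of the ordinary kind, differed by -3.42, at 3.14 in I2 and a mean of 6.56 over the other inhibitory pools. Igf1, insulin-like growth factor 1, read 2.45 on both I2 arrays against 3.99 to 9.49. Its direction was thus opposite to that of Pappa, and the Igf1 difference of -4.53 (adjusted p 0.382) was not called.

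Genes of fast transmitter release had negative differences for 6 of the 7 kept, with a median of -1.70, and a median of -1.14 over all 8 members read. Vamp1, a vesicle fusion protein, read 5.32 and 5.40 in I2 against 5.89 to 8.94. Syt2, a fast calcium sensor of release, read 3.73 and 3.15 in I2 against 2.90 to 7.98, the lowest of which were in I3b. Of the neurofilament genes, Nefm read 3.41 and 3.20 in I2 against 5.15 to 7.80. Nefh read 5.88 and 5.83 in I2, inside the range of 5.04 to 9.22. In 3 of the 4 filament genes kept the difference was negative, with a median of -0.98, and over all 7 read the median was -0.27. Oxidative phosphorylation genes, 45 kept, gave a median of -0.07 with none apart.

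**Figure D5:**
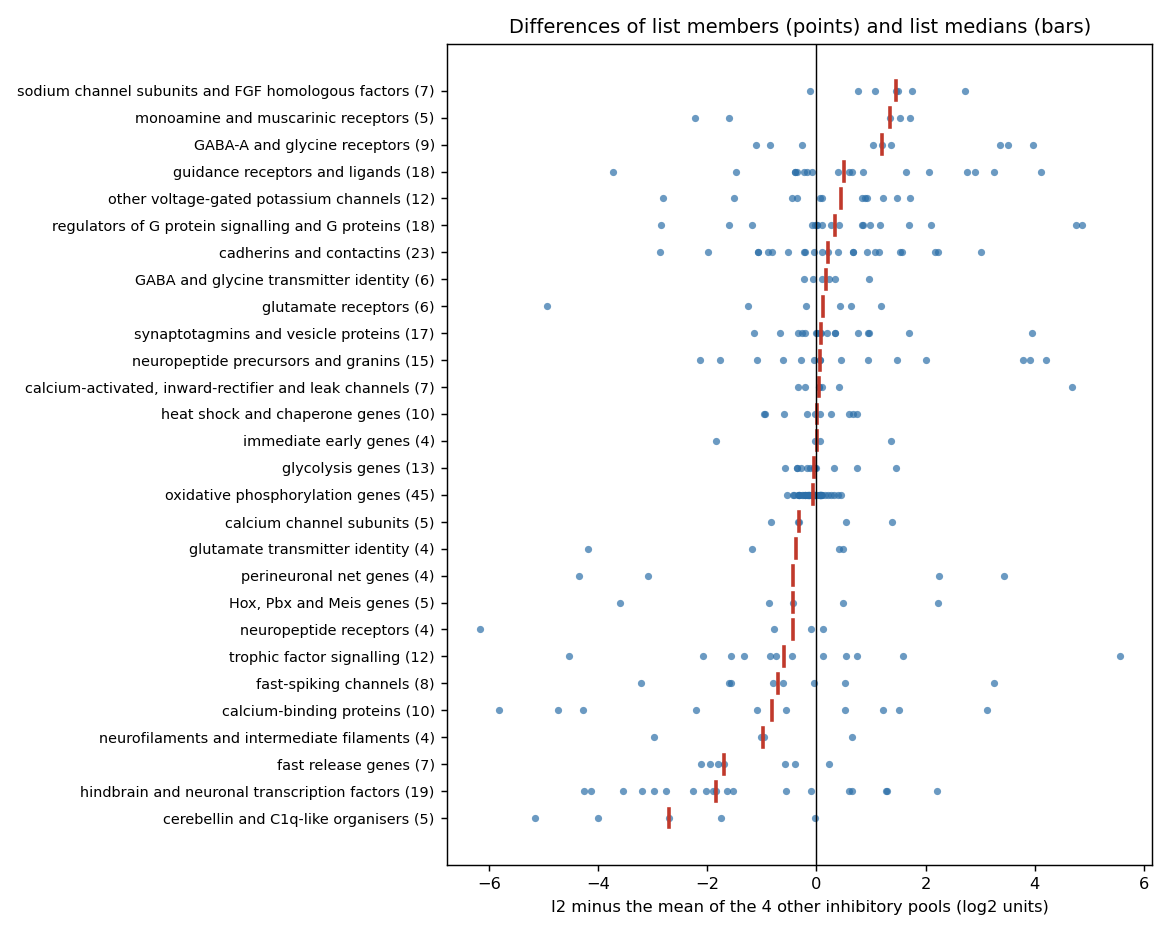
Difference of I2 from the mean of the 4 other inhibitory pools (x axis, log2 units) for the members kept of each gene list with at least 3 kept, marker lists left out (rows, number kept in brackets), with 1 point per gene and a red bar at the list median. Among these lists, medians run from -2.70 for cerebellin and C1q-like organisers to 1.45 for sodium channel subunits and FGF homologous factors, and the 45 oxidative phosphorylation genes sit within 1 unit of 0.

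At the level of arrays, where the error is technical and the comparison is between pools and not cell types, 837 genes were called against the mean of the 4 other types. Of these, 538 were higher in I2 (12.2%) and 299 lower (6.78%), a share of 64.3% higher that became 54.2% after quantile normalization and 54.0% after median centring. Read against those shares, the neuronal transcription factors had 12 of 19 called lower and 3 higher, and the GABA-A and glycine receptors 6 of 9 higher and 1 lower, with Glra2 and Glra3 in the 9 through I2 alone. Cerebellin and C1q-like organisers had 4 of 5 lower, fast release genes 4 of 7 lower, and sodium channel and related genes 5 of 7 higher. Of the 7 sodium channel and related genes, 1 had passed the filter through I2 alone. Genes of oxidative phosphorylation had none of 45 called and the heat shock list none of 10. The lists were not tested as sets.

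Set against each other type in turn, the number of genes called ran from 765 against I3b to 1137 against I1a. Against I1a, 1137 genes were called (25.8%), 830 higher in I2 and 307 lower. Against I1b there were 909 (20.6%), 530 higher and 379 lower. The I3 types gave 1041 calls (23.6%) against I3a, 699 higher and 342 lower, and 765 (17.4%) against I3b, 450 higher and 315 lower. More genes were higher than lower in I2 in each of the 4. The 4 comparisons share the I2 arrays. Rescaling evened the split most for I1a, to 533 and 479 by quantile normalization and 537 and 477 by centring, and for I3a, to 515 and 447, and 540 and 451. Among named genes, Lpl differed by 3.75 log2 units from I1b, and at 2.39 and 2.59 in I1a, near the floor, it allows no measured size against that type. Rgs4 differed by 7.77 from I3b but by 1.99 from I1b. Pvalb differed by -5.39 from I1a, -4.34 from I1b, -4.69 from I3a and -4.52 from I3b and so lay over 4 units below each.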

How the data were processed

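The authors deposited log2 signals of 14 arrays, for which the submitters' processing notes name affy and GCRMA. The log base was inferred from the range of values and from what GCRMA normally returns, and how probe sets were chosen for the table is not given in the sources used here. Where several probe sets name a gene and no other, the brightest on average over the 14 arrays was used. A gene was kept at a mean of 5 in at least 1 type.

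Arrays of a type share a pool, so the pool was the replicate. I2 was tested on 5 pool means with lmFit and eBayes (limma 3.58.1 in R 4.3.3, intensity trend, 3 residual degrees of freedom), with Benjamini-Hochberg adjustment over 4409 genes. The lone I2 pool was assumed to vary as the others do. A fit of 14 arrays with 1 mean per type gave technical error only. The fits were also run on simulated data with normal noise and no floor, so that run does not support the calls above. Figures used matplotlib 3.10.9 and pandas 2.3.3. With signal over background in place of depth, 54% to 56.7% of probe sets lay within 0.1 of the floor, and the number of pools limits the precision.

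Genes named were the 15 with the largest gap in each direction, those called, up to 3 per list that differed by at least 1 unit, and 6 transmitter genes. Other genes in the text were picked by list membership after their values were seen. The text leaves unnamed, but counts, 123 genes kept that carry clone-type names. Members and lists were chosen with earlier results of these data known. Same-numbered arrays of different pools deviated together only weakly (correlations -0.12 to 0.21, 4 of 21 pairs over 0.1). The main fits therefore did not pair arrays by number. Alternatives changed the filter, probe sets, floor, scaling, trend, block, pools and arrays.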

Additional observations from a re-analysis of the deposited data

Results flagged for a closer look

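Among the 4 other inhibitory pools, 1 pool lay far from the other three for 13 of the named genes, measured by its gap relative to the range. Chance marks about 1 in 20 groups in this way, and the pools are different cell types rather than replicates. The I1b pool was the high one for 7 of these genes, with Lpl at 6.78, Dcc at 3.94, Nxph2 at 3.69, Slc6a2 at 3.23, Glra2 at 3.07, Rnf207 at 2.94 and Slc17a7 at 2.82. In the I3b pool Tmem176a was the highest, at 3.45, while Bcan at 7.95 and Pcp4 at 5.66 were the lowest. Rgs5, at 2.47 in I3b, was marked on a range of hundredths of a unit at the floor. Cck stood out in I1a, at 4.80, and Gabra2 in I3a, at 5.84.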

How the results depend on the processing

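The count of calls on pool means depended most on the settings. It was 8, and 141 with no filter, 83 with values under 5 set to 5, 42 without the intensity trend, 39 with the excitatory pools as a group in the fit, and 168 with 10 arrays and the pool as a random block (correlation within a pool 0.79). It was 0 with a filter at 7 and without the I1a, I3a or I3b pool. Leaving out arrays gave 2 to 25 calls. Against the mean of 4 types on arrays, 837 calls became 462 with a filter at 7, 501 with the mean of all probe sets and 543 with values under 5 set to 5, and leaving out arrays gave 823 to 850. A filter at 7 and the mean of all probe sets gave 665 and 668 for I1a, 501 and 562 for I1b, 563 and 599 for I3a, and 410 and 469 for I3b. Leaving out arrays gave 1112 to 1174, 899 to 911, 1021 to 1078 and 737 to 795 in the same order. Genes apart numbered 125 with a filter at 7, 135 with the mean of all probe sets and 136 with values under 5 set to 5, and 214 to 348 with arrays left out, against 207. Both filters and the averaging of probe sets test fewer genes (2416 at 7 and 3164 when averaged). With the replicate number as a block, 838 genes were called against the mean of 4 types, against 837 without it, and the block changed no other count by 1.5 times. Array fits without replicate 1 or without replicate 2 of every pool have no residual degrees of freedom and could not be fitted.

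Of the differences of named genes, 2181 values kept their direction and their side of the threshold, 127 became calls and 54 lost one. The sign turned for Cacna2d3 with values under 5 set to 5 (-0.09) and for Gad2 without the I1b pool (-0.01), and neither gene was called. The cause was not tested. Another probe set existed for 35 of the named genes. Of these other sets, 8 reached 5 in a type, and all 8 had the sign of the one used. The rest stayed under 5 in every type. The median over all genes was 0.09, and -0.067 or -0.066 after rescaling.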

Other observations

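Receptors for serotonin went both ways in I2, and none was called on pool means. Htr7, a receptor that raises cyclic AMP, read 5.81 and 6.06 in I2 against 3.56 to 5.10 on the 8 other inhibitory arrays. Htr1d, which lowers cyclic AMP, read 2.60 and 2.61 in I2 against 2.76 to 6.49, and Htr2c, which acts through phospholipase C, read 7.02 and 7.05 against 7.63 to 9.52. For each of these genes the I2 arrays did not overlap the others, by margins under 1 log2 unit. The same held, at any margin, for 23.6% of all genes kept above and 11.9% below. These 3 genes were named for the largest differences in their list. Htr1d was read on a probe set of a kind that can cross-hybridise, and its other probe set differed by -0.63. The homeobox gene Pbx3 read 2.48 and 2.72 in I2 against 3.29 to 8.05, while the related Meis2 was the gene of its list that lay apart above. Both were also read on probe sets of a kind that can cross-hybridise. The other Pbx3 set averaged 2.39 in I2 and over the other inhibitory pools, and other Meis2 sets differed by 2.1 and 0.0. Rgs20 read 2.42 and 2.39 in I2 against 3.21 to 6.80, the opposite side from Rgs4 and Rgs5.

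Among genes that respond to activity or handling, Fos read 2.82 and 2.79 in I2 against 3.34 to 6.53, and Dusp1 read 8.22 on both I2 arrays against 5.73 to 7.89. The heat shock list had a median difference of 0.02. Ldha, which turns pyruvate into lactate, read 12.53 and 12.48 in I2, inside the 8.03 to 12.93 of the others. The myelin genes Cnp and Mbp, used here as oligodendrocyte markers, averaged 4.25 and 2.47 in I2 and reached 9.14 and 6.20 in the I3a pool. Cnp was read on a probe set of the kind that can cross-hybridise, and its other probe set reached at most 2.49 in a type. The other probe sets of Mbp reached at most 4.95 in a type. The summed linear signal of the 10 oligodendrocyte markers read, Cnp among them, was 92 in I2 and 111 to 702 in the other inhibitory pools. Their part in the differences of I2 from I3a was not tested.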
